A study of Mus musculus with 8 samples.

Results

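The genes that carry a cell through its division cycle were followed in mouse macrophages loaded with modified lipoprotein. They were given as 44 names of cyclins, cyclin-dependent kinases and their inhibitors, replication factors and mitotic proteins, and every probe of the bead array annotated with one of these names was taken. That rule found 96 of 45281 probes, for 43 genes, because Cdk1 and Cdc2a are names of the same kinase gene and the array annotation uses Cdc2a. The cells were thioglycollate-elicited peritoneal macrophages of C57/BL6 mice aged 8 weeks, which the study's methods describe as adherent cells of male animals. On 4 arrays was RNA of macrophages incubated for 24 h with acetylated low density lipoprotein (Ac-LDL, 120 µg/ml), a modified form of LDL that scavenger receptors take up without feedback, and on 4 that of mock-treated controls. The labels name no allele or transgene, and both groups shared the elicitation. The study's culture methods add medium conditioned by L-929 cells, a source of the macrophage growth factor M-CSF, and whether it was present during the 24 h is not given in the sources used here. Each group was numbered as biological replicates 1 to 4, and the array identifiers place replicates 1 and 2 of both groups on slide 1 and replicates 3 and 4 on slide 2, so each slide carried 2 control and 2 Ac-LDL arrays.

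A cell that is stimulated to divide first makes D-type cyclins, which with Cdk4 loosen the hold of the retinoblastoma protein on E2F transcription factors. E2F proteins then switch on cyclin E and the genes that license and copy DNA, such as the Mcm helicase subunits. The mitotic genes follow late in the cycle, and many are held silent in resting cells by a repressor complex that binds the cell cycle genes homology region (CHR) of their promoters. Elicited peritoneal macrophages mostly do not divide, although macrophage growth factors can bring a share of them into the cycle. The inhibitors Cdkn1a (p21) and Cdkn1b (p27) brake the cyclin-dependent kinases.

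The promoters of these genes hold letters known as binding sites of the regulators just named. RefSeq promoters (GRCm38.p6, 250 bases before to 50 after the start, 300 in all) were matched for 35 of the 43 genes, and Aurkb, Ccna2, Ccnd1, Ccnd2, Ccne2, Mcm4, Stmn1 and Tpx2 had no match in the table. The E2F letters searched on both strands were TTTCCCGC, TTTGGCGC, TTTCGCGC and TTTGCCGC. They occurred in a promoter of 8 of the 35 genes (22.9%) against 2.27% of all 32851 promoters of the same length. Those 8 were Cdc6, Cdk1, Cdk2, Cdt1, Mcm3, Mcm5, Mcm6 and Mcm7, that is, 7 genes of licensing or S phase entry and 1 mitotic kinase. The CHR letters TTTGAA and TTCGAA occurred in 14 of the 35 (40%) against 19.2% of all promoters, and in 9 of the 13 mitotic genes matched. CCAAT, the letters of the factor NF-Y, occurred in 25 of the 35 (71.4%) against 37.4%. These shares differ in unit, since a gene counted when any of its promoters held the letters and the background counted single promoters. Ccnd3, Cdkn1a and Mcm7 had more than 1 promoter. The 250 bases before the start are given for 4 members measured below, to show both kinds of promoter and 1 with none of these letters. Lower case marks bases outside the motifs, and capitals mark the E2F, CHR and CCAAT letters on either strand, where the E2F matches of Mcm5 overlap each other.
Mcm5, chr8:75109259-75109508, plus strand: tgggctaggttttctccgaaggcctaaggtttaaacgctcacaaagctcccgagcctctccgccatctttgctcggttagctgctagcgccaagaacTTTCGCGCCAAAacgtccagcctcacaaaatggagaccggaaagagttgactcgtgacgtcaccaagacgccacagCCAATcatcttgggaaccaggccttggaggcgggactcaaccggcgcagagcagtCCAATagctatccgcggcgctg
Cdk1 (Cdc2a), chr10:69352913-69353162, minus strand: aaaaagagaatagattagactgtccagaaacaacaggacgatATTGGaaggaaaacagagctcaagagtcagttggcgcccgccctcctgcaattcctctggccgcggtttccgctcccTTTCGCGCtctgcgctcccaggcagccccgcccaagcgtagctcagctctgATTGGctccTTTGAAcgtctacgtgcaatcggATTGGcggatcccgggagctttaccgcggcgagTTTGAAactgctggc
Cdc20, chr4:118437344-118437593, minus strand: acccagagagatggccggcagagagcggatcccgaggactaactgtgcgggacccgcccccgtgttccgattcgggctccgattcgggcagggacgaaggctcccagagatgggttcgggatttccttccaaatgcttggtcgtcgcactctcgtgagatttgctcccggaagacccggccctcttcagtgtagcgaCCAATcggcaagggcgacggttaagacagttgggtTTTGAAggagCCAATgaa
Tk1, chr11:117826015-117826264, minus strand: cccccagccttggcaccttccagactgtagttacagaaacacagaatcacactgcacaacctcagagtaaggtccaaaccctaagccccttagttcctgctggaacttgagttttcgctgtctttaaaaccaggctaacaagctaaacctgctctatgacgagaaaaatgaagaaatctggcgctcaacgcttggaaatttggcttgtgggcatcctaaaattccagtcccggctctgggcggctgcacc
The sequence of Mcm5, a helicase subunit, showed E2F and CCAAT letters, that of Cdc20, an activator of the anaphase-promoting complex, showed CHR and CCAAT letters, and that of Cdk1 showed all 3 kinds. Tk1 had none of them in this window. A match of letters is a description of the sequence, and binding was not measured here.

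Most of the genes gave a signal in these cells. A probe counted as detected on an array when its detection p-value, its rank against the negative control probes of that array, was at most 0.05. Of the 96 probes, 60 were detected on all 8 arrays, 3 on 4 to 7, 3 on 1 to 3 and 30 on none. Taking detection on at least 4 of the 8 arrays as the threshold for testing, 63 probes for 36 genes were tested, 65.6% of the members' probes against 37.8% of all probes on the array. The single arrays were alike in this respect, each with 62 to 64 of the probes and 36 to 37 of the genes detected. A stricter detection p-value of at most 0.01 left 60 probes and the same number of genes, 36.

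Of the 43 genes 7 were not tested, most of them mitotic. Bub1, a kinase of the spindle checkpoint, Ccnb2 (cyclin B2), Ube2c, the ubiquitin-conjugating enzyme of the anaphase-promoting complex, and the Cdk-binding proteins Cks1b and Cks2 had no probe detected on any array. Ccna2, the cyclin A of S phase and mitosis, was not detected on any array either. Cdkn1b reached detection on 3 of 8 arrays with its best probe, too few for a test. By contrast Mki67, the gene of the proliferation antigen Ki-67, Top2a, which untangles replicated DNA, Ccnb1 (cyclin B1) and Cdc2a were each detected on all 8 arrays by at least 1 probe. An undetected probe was not well above background, which does not show that its transcript was absent, since 13 genes had both tested and untested probes. No tested probe was undetected throughout one group, and 3 (dim probes of Top2a, Ccnd3 and Tyms) were detected on fewer than 4 arrays of a group. In the following, each gene is given by its tested probe with the highest mean, on a scale of normalized log2 intensity, and levels of different genes are not compared because probes differ in brightness.

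The arrays held the macrophage signature their label names. Of 13 macrophage marker names on the array, 12 were tested, and Msr1 was undetected on all arrays. The lysozyme names Lyzs, Lyz2 and Lyz were counted separately among the 12. The summed normalized intensity of the 12 was 75988 to 94047 on control and 80327 to 94284 on Ac-LDL arrays. This sum differed by slide, at 75988 to 81609 on slide 1 and 90093 to 94284 on slide 2. Fibroblast markers were present, with 6 of 7 tested and sums of 10548 to 14517 on control and 11000 to 13506 on Ac-LDL arrays. Of 5 mesothelial markers on the array 4 were tested, with sums of 2414 to 3523 on control and 2778 to 3179 on Ac-LDL arrays. Of 6 B cell markers 3 were tested, with sums of 122 to 380 and 135 to 264. Of 5 dendritic cell markers 2 were tested, and of 8 T or NK cell markers 1, Lck. Mast cell, eosinophil and erythroid markers gave no tested probe, and no marker of any list was called with Ac-LDL. Of 7 neutrophil markers on the array 5 were undetected on all arrays and 1 was tested, S100a8, which read 553 to 617 (normalized intensity) on control and 646 to 721 on Ac-LDL arrays, without overlap. The part of S100a8 and of the other cell type markers in the Ac-LDL values below was not tested. In a principal component analysis the slides parted along the first component (50.2% of variance) and the groups along the second (14.5%).

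With Ac-LDL, no cell cycle gene was called at an adjusted p under 0.05, and most had slightly higher mean values in the loaded cells. The comparison asked whether cholesterol loading for 24 h altered the transcripts of the division cycle, and it used limma on 4 arrays against 4 with adjustment over all 17122 tested probes. The background was low, with 7 probes called, 0.0409%, and 0 of the 63 members' probes were among them. With 1 array left out, 0 (without control 4 or without Ac-LDL 1, 2 or 3) to 15 (without control 2) of all tested probes were called, and 0 members' probes each time. At an unadjusted p under 0.05 there were 14 members' probes (22.2%), against 5.2% of all tested probes. Of these 13 were higher (2.73% of all tested probes) and 1 was lower (2.47%). The mean was higher with Ac-LDL for 51 of the 63 (81%) against 50.4%, and the median log2 difference was 0.22 against 0.00 over all tested probes. Ac-LDL was higher in 4 of 4 same-numbered pairs for 22 probes (34.9% against 11.5%) and lower in 4 of 4 for 1 (1.59% against 10.4%). All Ac-LDL arrays lay above all control arrays for 7 probes (11.1% against 2.11%), and below for 1 (1.59% against 1.68%). Probes of one pathway are not independent of each other, so the counts describe the list and are no test of it. In RNA of whole cultures, more cells in cycle, more RNA per cycling cell and a different share of cell types cannot be told apart.

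A single control array carried part of this shift. Control replicate 2 was the lowest of the 8 arrays for 37 of the 63 probes (58.7%) against 12.8% of all tested probes. Before normalization its median signal over detected probes was also the lowest, at 121, against 145 to 149 on the other controls and 129 to 139 on Ac-LDL arrays. Over all probes its median signal was 42.8, and that of Ac-LDL 1 was 42.5. The part of this brightness in the members' values was not tested. The median deviation of the members' probes from their own mean was -0.32 on control 2, -0.14 on control 1, -0.01 on control 3 and 0.02 on control 4. It was 0.11, 0.00, 0.16 and 0.08 on Ac-LDL 1 to 4. Without control replicate 2 the median log2 difference was 0.13, with 46 of 63 probes higher and 6 at an unadjusted p under 0.05, and without control replicate 4 it was 0.27, with 54 higher and 23 at an unadjusted p under 0.05. For 26 of the 36 genes, leaving out some single array moved the log2 difference by over 1.5 times or turned its sign, and 27 genes lay closer to 0 without control replicate 2. Within slide 1 the median log2 difference was 0.29, with 55 of 63 probes higher (87.3% against 49.5%), and within slide 2 it was 0.11, with 46 higher (73% against 50.8%). Over all 96 probes with no detection threshold it was 0.066. When the arrays were scaled to a common median in place of quantile normalization, the median over all tested probes moved to -0.07 and that over the members to 0.13, so the distance between them was 0.20, beside 0.22 in the quantile-normalized values.

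**Figure D1:**
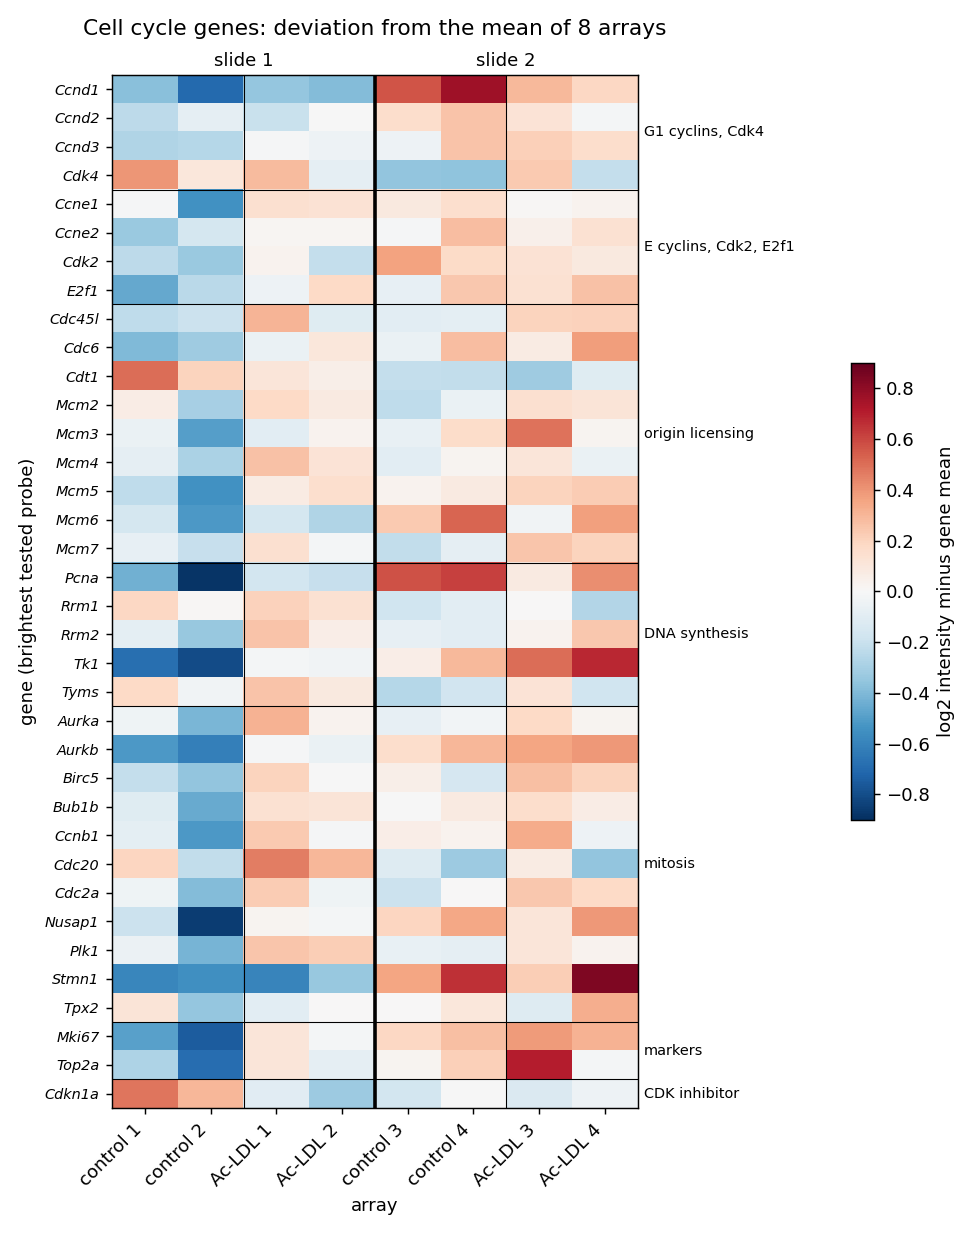
Deviation of normalized log2 intensity from the mean of the 8 arrays (color, log2 units) for the brightest tested probe of each of the 36 genes (rows, grouped by role) on each array (columns, slide 1 left and slide 2 right of the thick line). Control 2 is the bluest column, and Ccnd1 and Stmn1 turn from blue on slide 1 to red on slide 2. Pcna and Tk1 turn the same way, with some cells near white.

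Among the G1 genes the values with Ac-LDL lay on both sides of the control, with a median log2 difference of 0.03 over the 4 genes. Ccnd1 (cyclin D1), the growth factor sensor of the cycle, read 9.22, 8.89, 10.16 and 10.35 on controls 1 to 4 and 9.24, 9.20, 9.89 and 9.78 on Ac-LDL 1 to 4, a log2 difference of -0.13 ± 0.32 (SE, n = 4 and 4, limma adjusted p = 0.994). The groups overlapped, and the arrays split by slide rather than by treatment. Ccnd2 (cyclin D2) read 8.67, 8.83, 9.07 and 9.16 on the controls and 8.70, 8.90, 9.03 and 8.89 with Ac-LDL, a log2 difference of -0.05 ± 0.13. Ccnd3 and Cdk4 differed by 0.16 and 0.11, with 95% intervals of -0.14 to 0.45 and -0.31 to 0.53.

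The genes of S phase entry were all on the higher side, with a median of 0.13 over 4 genes. E2f1, the founding E2F factor, read 8.25, 8.46, 8.63 and 8.95 on the controls and 8.66, 8.89, 8.84 and 8.97 with Ac-LDL. It was higher in 4 of 4 pairs by 0.27 ± 0.15, with overlapping groups and an adjusted p of 0.96. Ccne1 and Ccne2, the E cyclins, differed by 0.16 and 0.11, and Cdk2, their kinase, by 0.02, with a 95% interval of -0.34 to 0.38. Within slide 1 all 4 genes were higher (median 0.34), and within slide 2 only 1 was (median -0.07). Without control replicate 2 the log2 difference was 0.0008 for Ccne1, -0.09 for Cdk2, 0.08 for Ccne2 and 0.23 for E2f1.

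Of the 9 licensing genes, which load and activate the replicative helicase, 7 were on the higher side, and the median log2 difference was 0.25. Mcm2 read 7.70, 7.33, 7.40 and 7.57 on the controls and 7.81, 7.71, 7.78 and 7.74 with Ac-LDL. Every Ac-LDL array lay above every control array, by 0.26 ± 0.10 in the mean (adjusted p = 0.887, exact two-sided permutation p = 0.0286, the smallest that 70 assignments of 8 arrays can give). Mcm7 showed the same separation, 6.21 ± 0.08 (SD) in controls and 6.50 ± 0.12 with Ac-LDL, a log2 difference of 0.29 ± 0.10 (SE, adjusted p = 0.807). Mcm5, whose promoter is shown above, was higher in 4 of 4 pairs by 0.33 ± 0.14, and Mcm4, Mcm3, Cdc6 and Cdc45l differed by 0.22, 0.23, 0.25 and 0.30. The brightest Mcm6 probe read 9.14, 8.78, 9.53 and 9.83 on the controls and 9.14, 9.03, 9.27 and 9.67 with Ac-LDL, a log2 difference of -0.04 ± 0.22. Its dimmer probes went the other way, at 0.18 and 0.29, so the probes of this gene disagreed in sign. Cdt1, the loading factor that is destroyed once S phase starts, was the other gene on the lower side, at -0.13 ± 0.17.

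The largest log2 difference of any of the 36 genes with Ac-LDL was that of Tk1, the thymidine kinase that salvages thymidine for DNA synthesis. It read 7.77, 7.64, 8.51 and 8.74 on controls 1 to 4 and 8.43, 8.41, 8.95 and 9.12 on Ac-LDL 1 to 4. The loaded sample was the higher one in 4 of 4 pairs, while the groups overlapped because slide 2 was higher in both. The log2 difference was 0.56 ± 0.26 (SE), 1.48-fold, with an adjusted p of 0.946 in the unpaired fit, 0.0524 with the slide as a block and 0.0486 when replicate numbers were blocked. With the slide as a block 0 of the 63 probes and 0.321% of all tested probes were called, and with replicate numbers blocked 1 of the 63 and 0.444%. The exact two-sided permutation p of the unpaired difference was 0.171, and the second Tk1 probe differed by 0.35 (adjusted p = 0.904).

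The other genes of nucleotide supply and DNA synthesis differed less. Rrm2, the S phase subunit of ribonucleotide reductase, was 6.56 ± 0.13 (SD) in controls and 6.86 ± 0.12 with Ac-LDL, with no overlap and an adjusted p of 0.83. Its partner Rrm1 and the thymidylate synthase Tyms differed by 0.04 and 0.14. Pcna, the sliding clamp of the polymerases, read 6.06, 5.60, 7.06 and 7.10 on the controls and 6.32, 6.28, 6.57 and 6.91 with Ac-LDL. Its log2 difference of 0.07 ± 0.32 hid opposite signs within the slides, 0.47 on slide 1 and -0.34 on slide 2.

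**Figure D2:**
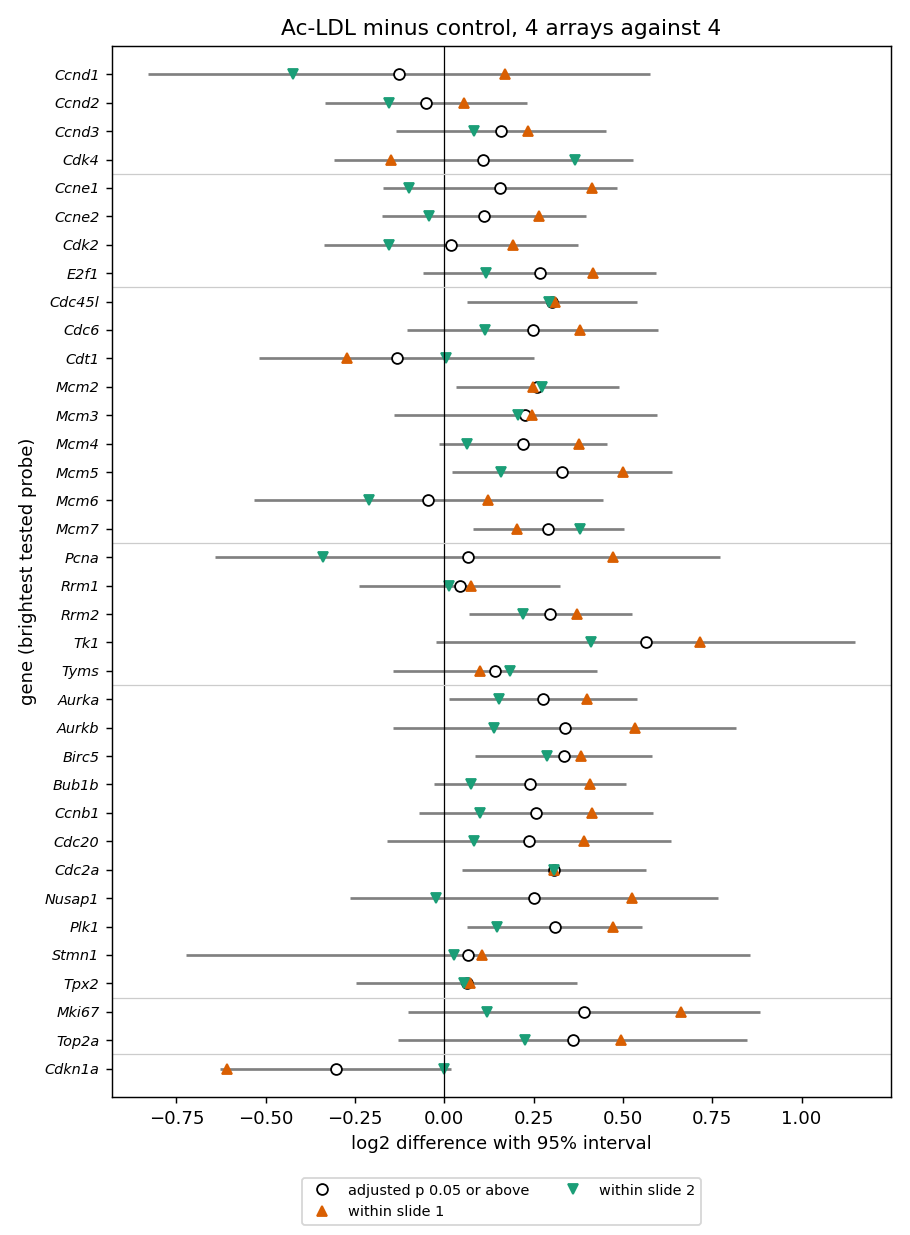
Log2 difference between 4 Ac-LDL and 4 control arrays (x axis) for each of the 36 genes (y axis, grouped by role), with the 95% interval of the unpaired fit as a bar and the differences within slide 1 and slide 2 as triangles. Every circle is open because no gene was called, 31 lie right of 0, and Tk1 lies farthest right at 0.56.

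All 11 tested mitotic genes had a higher mean with Ac-LDL, from 0.06 to 0.34, with a median of 0.26. Plk1, the polo kinase of mitotic entry, ranged from 8.47 to 8.84 on the controls and from 8.92 to 9.14 with Ac-LDL, so that the groups did not overlap (0.31 ± 0.11, adjusted p = 0.845). Aurka, the spindle kinase, was also without overlap, at 7.94 ± 0.18 (SD) and 8.22 ± 0.14. Birc5 (survivin), of the chromosomal passenger complex, was higher in 4 of 4 pairs with each of its 3 probes, by 0.33, 0.35 and 0.46, and only the dimmest of the 3 was without overlap. Cdc2a read 8.56, 8.21, 8.40 and 8.60 on the controls and 8.83, 8.56, 8.84 and 8.78 with Ac-LDL, a log2 difference of 0.31 ± 0.12 (adjusted p = 0.854). Its partner Ccnb1 read 6.98, 6.55, 7.13 and 7.10 on the controls and 7.30, 7.06, 7.40 and 7.03 with Ac-LDL, a log2 difference of 0.26 ± 0.15. The loaded sample was the higher one in 4 of 4 pairs for Cdc2a and in 3 of 4 for Ccnb1. Aurkb, Bub1b, Nusap1 and Cdc20 differed by 0.34, 0.24, 0.25 and 0.24, and Stmn1, which destabilizes microtubules, and Tpx2, which builds the spindle, by 0.07 and 0.06. None of these passed the adjusted threshold. Without control replicate 2 the log2 difference was 0.19 for Aurkb, 0.13 for Bub1b, 0.13 for Ccnb1 and 0.01 for Nusap1. In that fit Stmn1 and Tpx2 turned negative, at -0.11 and -0.04, while the remaining mitotic genes stayed positive. Without Ac-LDL replicate 1 the log2 difference was 0.12 for Cdc20.

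The proliferation markers were on the same side. Mki67 read 6.72, 6.46, 7.39 and 7.48 on the controls and 7.31, 7.19, 7.59 and 7.52 with Ac-LDL, higher in 4 of 4 pairs by 0.39 ± 0.22 (1.31-fold, adjusted p = 0.961). Top2a read 7.09, 6.68, 7.39 and 7.58 on the controls and 7.47, 7.28, 8.07 and 7.34 with Ac-LDL, a log2 difference of 0.36 ± 0.22. Without control replicate 2 the log2 differences were 0.21 for Mki67 and 0.19 for Top2a, and without Ac-LDL replicate 3 that of Top2a was 0.18. For both genes the groups overlapped, and the difference was greater within slide 1 (0.66 and 0.49) than within slide 2 (0.12 and 0.22), a contrast that was not called in the test of the difference itself.

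Cdkn1a, the p53 target that restrains the kinases, was the tested inhibitor and lay on the lower side. Its brightest probe read 11.26, 11.07, 10.61 and 10.77 on the controls and 10.67, 10.45, 10.64 and 10.73 with Ac-LDL, a log2 difference of -0.30 ± 0.15 (adjusted p = 0.949). The high values were those of the controls of slide 1, and the remaining arrays overlapped. Its second probe, at 8.96, 8.79, 8.58 and 8.49 on the controls and 8.13, 8.12, 8.30 and 8.45 with Ac-LDL, had no overlap and the lowest unadjusted p of the 63 (-0.45 ± 0.13, adjusted p = 0.645, exact two-sided permutation p = 0.0286). The third probe differed by -0.30 ± 0.18. Within slide 1 the 3 probes differed by -0.61, -0.74 and -0.70, and the second of them was the 1 members' probe called there (adjusted p = 0.0421, 2 arrays against 2 with the spread pooled over both slides, where 0.327% of all tested probes were called). Within slide 2 they differed by 0.00, -0.16 and 0.11.

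**Figure D3:**
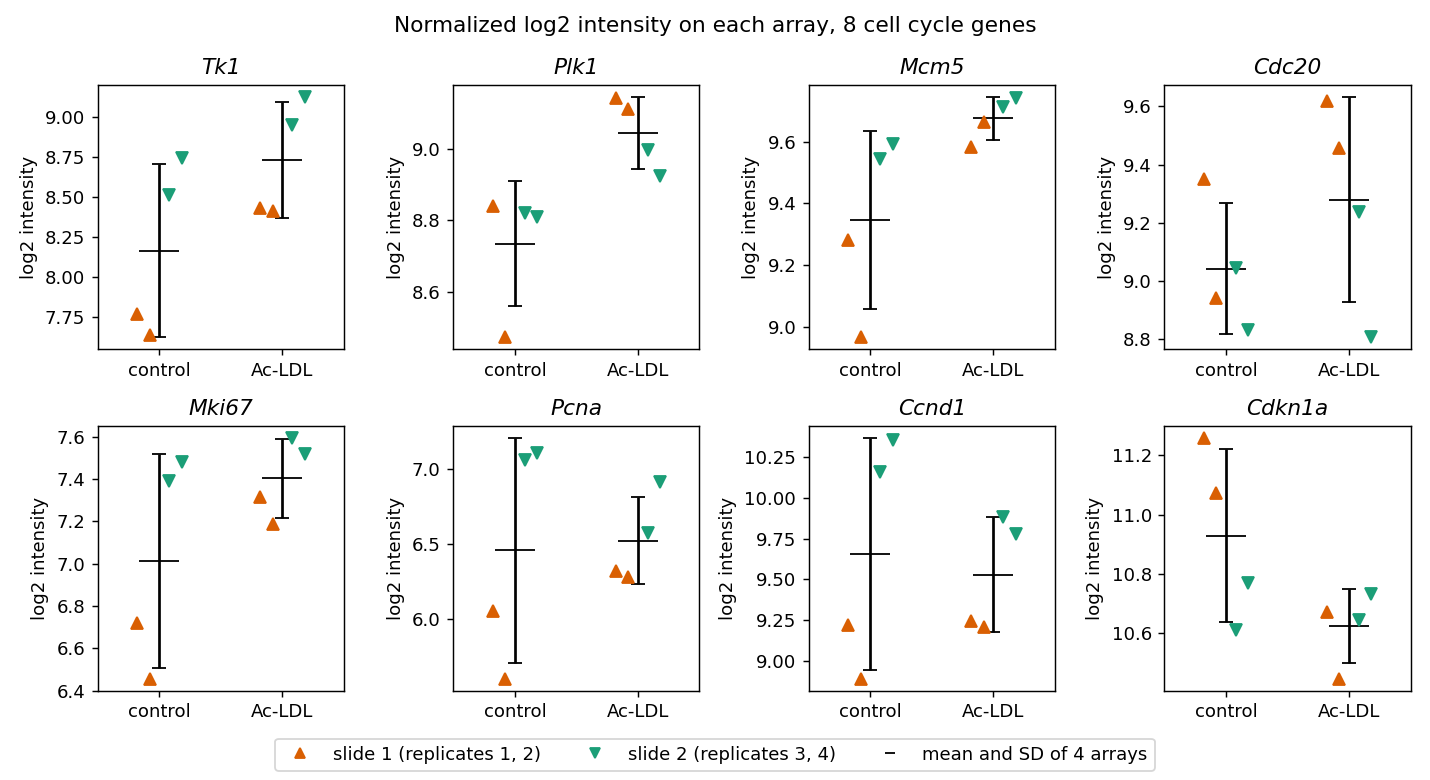
Normalized log2 intensity (y axis) on each of the 8 arrays for 8 genes, with controls left and Ac-LDL right in each panel, slide 1 as upward and slide 2 as downward triangles, and the mean and SD of 4 arrays as bars. Plk1 separates by treatment, Ccnd1 and Pcna separate by slide, and the Cdkn1a controls of slide 1 (11.26 and 11.07) lie above the remaining arrays.

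The slides differed more than the treatment groups did. With treatment in the model, 17 of the 63 probes (27%) were called between slide 2 and slide 1, against 23.6% of all tested probes, so the share of calls was near the background. The direction was uneven, with 14 probes higher on slide 2 (22.2% against 11.7%) and 3 lower (4.76% against 11.9%), and the median log2 difference was 0.16 against -0.02 over all tested probes, and 0.10 without control replicate 2. The mean was higher on slide 2 for 43 of the 63 (68.3% against 47.3%). All slide 2 arrays lay above all slide 1 arrays for 12 probes (19% against 10.7%), and below for 4 (6.35% against 13.6%). With replicate numbers as a random block, 16 were called (14 higher, 2 lower) and 21.3% of all tested probes. When the arrays were scaled to a common median, the higher share of all slide calls was 62.1% in place of 49.6%. In that setting 14 of the 63 members' probes were called higher and 2 lower, beside 2075 and 1267 of all 17122 tested probes. The slide cannot be told apart from the replicate numbers it held. Of the 12 macrophage marker names 7 were also called higher on slide 2, and 2 of the 6 fibroblast markers were called lower. The B cell, mesothelial and dendritic cell lists each had 1 marker called higher on slide 2, and Lck was called lower. The part of these markers in the slide difference was not tested.

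Stmn1 differed most between the slides. It read 5.47, 5.51, 5.46 and 5.72 on the arrays of slide 1 (controls 1 and 2, then Ac-LDL 1 and 2) and 6.41, 6.71, 6.28 and 6.90 on those of slide 2, a log2 difference of 1.04 ± 0.14 (SE, 2.05-fold, adjusted p = 0.0013). Ccnd1 followed at 0.91 ± 0.13 (1.87-fold, adjusted p = 0.0019), and its other 2 probes gave 0.98 and 0.78. Pcna (0.85 ± 0.17, adjusted p = 0.0073), Tk1 (0.77 ± 0.10, adjusted p = 0.0012) and Mki67 (0.58 ± 0.12, adjusted p = 0.0087) were higher on slide 2 as well, and for all 5 of these genes every slide 2 array exceeded every slide 1 array.

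Further calls came from each stage of the cycle. Aurkb, the kinase of the passenger complex, read 6.53, 6.43, 7.04 and 6.99 on slide 1 and 7.21, 7.35, 7.40 and 7.44 on slide 2, in the same order of arrays, a log2 difference of 0.60 ± 0.10 (adjusted p = 0.0029). Cdk2 read 9.61, 9.52, 9.88 and 9.63 on slide 1 and 10.21, 10.02, 9.98 and 9.94 on slide 2, a log2 difference of 0.37 ± 0.10 (adjusted p = 0.0264). Mcm6 was higher by 0.55 ± 0.13 with its brightest probe, while its dimmer probes gave 0.28 and 0.09 and were not called. Nusap1, a spindle protein, was higher by 0.52 ± 0.16 and Ccnd3 by 0.29 ± 0.09. Dimmer probes of Ccnb1 and Cdk2 were called at 0.45 and 0.52, where the brightest probe of Ccnb1 gave 0.19 and was not called.

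Cdt1 was the gene called in the other direction. It read 10.41, 10.11, 10.02 and 9.96 on slide 1 and 9.69, 9.68, 9.59 and 9.80 on slide 2, a log2 difference of -0.43 ± 0.10 (adjusted p = 0.0139) without overlap. The second Cdk4 probe, at 8.86, 8.66, 8.74 and 8.72 on slide 1 and 8.35, 8.33, 8.25 and 8.45 on slide 2, had a log2 difference of -0.40 ± 0.08, and the dimmest Tyms probe one of -0.26 ± 0.09 (adjusted p = 0.0473). The brightest probes of Cdk4 and Tyms gave -0.35 and -0.25 and were not called.

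**Figure D4:**
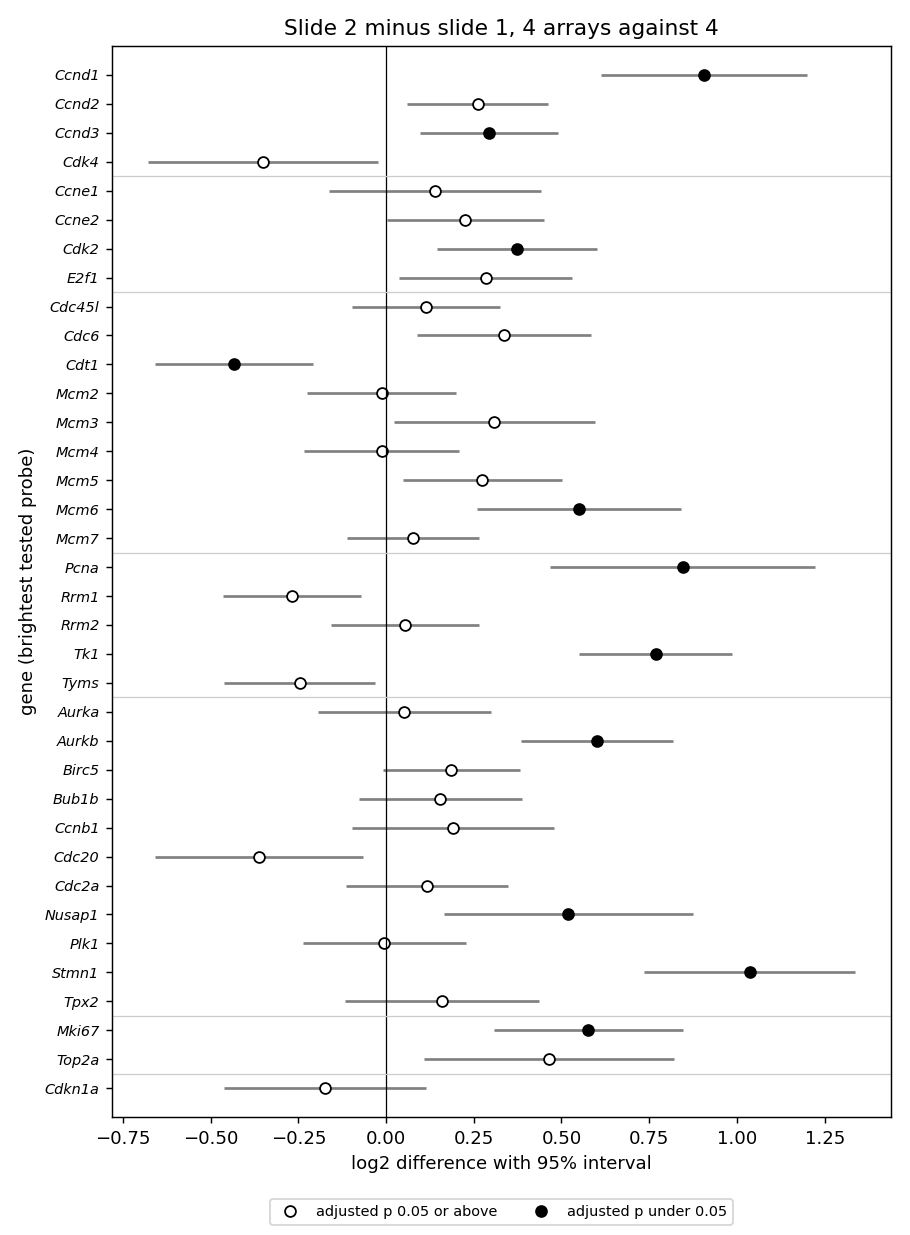
Log2 difference between the 4 arrays of slide 2 and the 4 of slide 1 with treatment in the model (x axis) for each of the 36 genes (y axis, grouped by role), with the 95% interval as a bar. Filled circles mark the 11 genes called at an adjusted p under 0.05, of which Stmn1 (1.04) and Ccnd1 (0.91) lie farthest right and Cdt1 (-0.43) is the 1 on the left.

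Within the control arrays alone 18 of the 63 probes were called between the slides (28.6%), against 16.9% of all tested probes, with a median of 0.26. Within the Ac-LDL arrays 2 were called, those of Stmn1 and Tk1 (3.17% against 2.87%), with a median of 0.13. Leaving out 1 array at a time, the members' calls moved with those of the whole array, from 12 of 63 without control 3 (19% against 13.6% of all tested probes) or without control 4 (19% against 15%) to 20 without Ac-LDL 3 (31.7% against 26.2%). Of the 11 genes called by their brightest probe, Ccnd3, Cdk2 and Nusap1 did not hold throughout. Ccnd3 kept its call in 1 of the 8 such fits (adjusted p up to 0.107, without control 4), Cdk2 in 3 (up to 0.086, without control 3) and Nusap1 in 3 (up to 0.116, without control 4). The remaining 8 genes were called in 8 of 8. Among the dimmer probes named above, those of Ccnd1 and Cdk4 were called in 8 of 8, that of Cdk2 in 5, that of Ccnb1 in 3 and that of Tyms in 0.

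The Ac-LDL difference was tested against the slide as well. The interaction of treatment and slide was called for 0 of 17122 probes by limma, with 1435 (8.38%) at an unadjusted p under 0.05, of which 9 were members' probes (14.3% of 63). With replicate numbers as a random block, 4 probes were called, 0.0234%, and 0 of them were members'. The median interaction over the members' probes was -0.23, with 49 of 63 negative, that is, a smaller Ac-LDL difference on slide 2. Over all tested probes the median was -0.002, with 8616 of 17122 negative. Without control replicate 2 the members' median was -0.10, and without Ac-LDL replicate 4 it was -0.13. Pcna (-0.81 ± 0.24), Ccnd1 (-0.59 ± 0.19) and Mki67 (-0.55 ± 0.17) had the lowest unadjusted p on the negative side, with adjusted p of 0.501, 0.523 and 0.509. Cdkn1a was positive with all 3 probes (0.61, 0.58 and 0.80), with adjusted p of 0.501, 0.486 and 0.442.

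Other genes of the same pathways, taken from lists of replication, mitosis and regulators, gave the wider setting. Of 166 names, 163 were on the array and 119 were tested. With Ac-LDL 0 of these were called, where 1 was called higher and 5 lower among all 12423 genes tested. Of 35 replication genes 29 had a higher mean (median 0.11), and of 42 mitosis genes 38 (median 0.19). Among all 12423 genes 6185 had a higher mean (median -0.0006). The mitosis genes included Kif11, a spindle motor (0.36), and Prc1, which bundles the midzone (0.29), neither of them called (adjusted p = 0.817 for both). Of 42 regulators 19 were higher (median -0.05). Cdkn1c (p57), an inhibitor of the cyclin-dependent kinases, read 13.61, 13.44, 13.55 and 13.44 on the controls and 13.06, 12.67, 12.97 and 13.00 with Ac-LDL, without overlap. Its log2 difference was -0.59 ± 0.11, with an adjusted p of 0.148 unpaired, 0.0496 with the slide as a block and 0.0348 with the replicate block. Cdkn1c was the 1 gene of the 119 called with either block. Among all 12423 genes, 12 were called higher and 31 lower with the slide block, and 23 and 38 with the replicate block. Between slides 23 of the 119 were called higher on slide 2 (19.3% against 11.8% of all 12423 genes tested) and 4 lower (3.36% against 12.5%). E2f2, an activating E2F factor, was higher by 1.14 ± 0.15 (adjusted p = 0.0014), and Gadd45b, a stress response gene, was lower, with a log2 difference of -1.54 ± 0.24 (adjusted p = 0.0025).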

How the data were processed

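Mouse macrophage RNA was hybridized to 8 Illumina bead arrays, 4 control and 4 Ac-LDL. The intensities deposited by the authors (exported with BeadStudio, per the labels; version not given in the sources used here) were neither background-subtracted nor normalized between arrays. The deposited detection p-value ranks each probe against its array's negative controls, 936 by its steps. The deposited bead standard errors and bead numbers were used only to describe quality. The authors' GeneSpring normalization and the annotation's genome build (not given in the sources used here) were not used. The number of arrays limits the precision, and labels do not say whether replicates came from separate mice, so p-values measure the spread between these samples.

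Here limma 3.58.1 in R 4.3.3 was used for normexp background correction with negative controls inferred from detection p-values, offset 16, quantile normalization and log2 (neqc). Probes detected (p-value at most 0.05) on at least 4 of 8 arrays were tested with lmFit and eBayes, and p-values were adjusted by Benjamini-Hochberg over all 17122. The Ac-LDL fit was unpaired, after the study's methods, the slide fit held treatment, and an interaction term tested the difference. Within-slide fits pooled the spread over the 4 cells. Exact two-sided permutation tests used the 70 assignments. Same-numbered samples correlated in their deviations from the group means (r = 0.579, 0.479, 0.468 and 0.629). Differently numbered samples of the same slide gave 0.429, 0.343, 0.188 and 0.447. Replicate numbers were taken to pair samples, which these values do not settle. Same-numbered samples share a slide, and with the slide removed their r was 0.221 and 0.344. Differently numbered samples then gave -0.221 and -0.344, opposite by construction with 2 arrays of each group on a slide.

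Members and lists were chosen with earlier results of these data known. Genes were given by their brightest tested probe, with each array's value for called members (at most 14 by p) and for Mki67, Top2a, Cdc2a, Ccnb1, Mcm2, Mcm6, Pcna, Ccnd1, Ccnd2, E2f1 and Cdkn1a. Array values of genes outside that rule were added after their values were seen. The steps were tested on simulated data. Alternatives were other background corrections, scaling, filters, priors, blocks and left-out arrays.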

Additional observations from a re-analysis of the deposited data

Results flagged for a closer look

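Among 72 sets of 4 arrays (36 genes in 2 groups), 3 held an array whose distance from its nearest neighbor took up more of the group's range than Dixon's test allows at 95%, where chance gives about 1 in 20, or 3.6. All 3 were control replicate 2. On that array Aurka read 7.67 and the other controls 8.01 to 8.05, Plk1 read 8.47 against 8.81 to 8.84, and Rrm2 read 6.37 against 6.62 to 6.63.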

How the results depend on the processing

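The members' count called with Ac-LDL was 0 under other background corrections, median scaling, other filters, the trend and robust prior, the slide block, the study's kind of unpaired test and each left-out array, and 1 with the replicate block (Tk1) and within slide 1 (Cdkn1a). The replicate block changed no other call of a member with Ac-LDL. The wider lists had 1 call (Cdkn1c) with the trend and robust prior, the slide block and the replicate block, and 1 within slide 1. With no filter the median Ac-LDL difference was 0.066 and the interaction median -0.070. The slide median was then 0.027 with 10 probes called, and the share of all probes called in that setting is not given here. Between slides, offset 50 gave 19 members' probes called higher and 5 lower, beside 2179 and 2329 of all tested probes. With no background correction there were 19 and 4, beside 2160 and 2283. Offset 50 gave an interaction median of -0.14, and leaving out single arrays -0.26 to -0.10. Within Ac-LDL arrays 2 probes were called between slides, and within control arrays the median was 0.26. The cause of these shifts was not tested, apart from the fewer or other probes and arrays that each setting holds.

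Single genes changed sign under some settings. For Ac-LDL within slide 1, Ccnd1 was 0.17, Ccnd2 0.055, Cdk4 -0.15 and Mcm6 0.12. Within slide 2, Ccne1 was -0.099, Ccne2 -0.043, Cdk2 -0.15, Cdt1 0.0049, Nusap1 -0.023 and Pcna -0.34. Median scaling gave Cdk2 -0.072, Pcna -0.016, Rrm1 -0.044, Stmn1 -0.0091 and Tpx2 -0.013. Leaving out arrays, singly or by number in both groups (the latter chosen after seeing the data), gave ranges of -0.38 to 0.10 for Ccnd1, -0.14 to 0.026 for Ccnd2, -0.016 to 0.25 for Ccne1, -0.088 to 0.14 for Cdk2, -0.050 to 0.26 for Cdk4, -0.23 to 0.012 for Cdt1, -0.22 to 0.12 for Mcm6, -0.22 to 0.28 for Pcna, -0.019 to 0.14 for Rrm1, -0.20 to 0.30 for Stmn1 and -0.043 to 0.15 for Tpx2. For the slides, median scaling gave Mcm2 0.017. Within control arrays Mcm4 was 0.14, Mcm7 -0.010 and Plk1 0.16. Within Ac-LDL arrays Aurka was -0.070, Bub1b -0.012, Ccne1 -0.12, Cdkn1a 0.13 and Rrm2 -0.020. Left-out arrays gave -0.047 to 0.13 for Aurka, -0.019 to 0.20 for Ccne1, -0.084 to 0.063 for Mcm2, -0.085 to 0.054 for Mcm4, -0.11 to 0.042 for Plk1 and -0.010 to 0.11 for Rrm2. None of these genes was called in that contrast over all arrays, and Cdkn1a was called between slides within control arrays (-0.48, adjusted p = 0.0364).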

Other observations

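Outside the 43 genes, some regulators of the cycle had lower values with Ac-LDL. Klf4, a transcription factor that restrains division, read 6.71, 6.37, 6.66 and 6.47 on the controls and 6.15, 6.13, 5.89 and 6.05 with Ac-LDL. Gadd45g, a growth arrest gene, read 12.49, 12.41, 11.83 and 12.01 on the controls and 11.75, 11.65, 11.53 and 11.77 with Ac-LDL. In both genes every Ac-LDL array lay below every control array, with log2 differences of -0.50 ± 0.11 and -0.51 ± 0.15 (SE), and neither was called (limma adjusted p = 0.294 and 0.713). Of the 42 regulators tested, 4 lay below without overlap and 1 above, beside 217 and 263 of all 12423 genes tested. Of the same 42, 19 had a higher mean with Ac-LDL. Between the slides the transcription factors of the late cycle, Foxm1 and Mybl2, were called higher on slide 2 by 0.39 ± 0.11 and 0.48 ± 0.12 (adjusted p = 0.0286 and 0.0178). These genes were picked from the lists after their values were seen.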
